A study of Gallus gallus with 6 samples.

Results

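The brush border digestive enzymes are proteins fixed in the microvilli of intestinal epithelial cells, where they complete the digestion of starch, sugars and peptides. The members were chosen by gene symbol: SI, MGAM and LCT, which split sugars, ANPEP, ENPEP, DPP4 and MEP1A, which cut peptides, TMPRSS15, which activates trypsinogen, and ALPI, a phosphatase. All 9 symbols were found among the 16317 genes of the deposited table, and all 9 passed the filter on low counts that left 13060 genes for testing. RNA was sequenced from the jejunal mucosa of SUT breeder hens aged 28 weeks. The heat group was held at 36 °C for 6 h and the control group was kept at 23 °C without heat stress. Each group had 12 hens, whose RNA was combined 4 hens at a time into 3 heat pools and 3 control pools with 1 library each, so the spread between replicates is a spread between pools of hens. The design sought genes of the gut that respond to acute heat.

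As background, enzymes of the brush border are made by enterocytes as they leave the crypts and are among the markers of mature absorptive cells. Sugars freed by the disaccharidases enter the cell through sugar carriers, and short peptides and amino acids freed by the peptidases enter through peptide and amino acid carriers. Enteropeptidase, the product of TMPRSS15, starts the digestive cascade by converting pancreatic trypsinogen to trypsin. In mammals CDX2 and GATA factors drive transcription of several of these genes in the small intestine.

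The libraries held between 11513427 and 13805395 summed estimated counts. Pairs of heat pools differed more from each other (a chi-square of counts over its degrees of freedom of 38.8 to 65.7) than pairs of control pools (22.2 to 23.7), and both values were above counting noise. The largest distance from the control pools was that of heat pool 2, from 70.5 to 84.6. In each library the deviation of every tested gene from its mean over the libraries was also set against gene length. The Spearman correlation was 0.278, 0.239 and -0.145 in heat pools 1, 2 and 3. It was -0.275, -0.049 and -0.147 in control pools 1, 2 and 3, and its source was not tested. The epithelial markers VIL1, EPCAM, CDH1 and CDH17 were detected in every library, which matches the labelled tissue. The 8 exocrine pancreas genes in the table summed to between 1.47 and 2.0 FPKM in heat pools and between 0.95 and 3.19 FPKM in control pools, and 6 of them were under 1 FPKM in every library. In bulk tissue, fewer cells of a type and less RNA per cell cannot be told apart.

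Heat and control were compared with the quasi-likelihood test of edgeR, and 0 of the 9 enzymes reached an adjusted p under 0.05, the smallest being 0.462. Over all tested genes 3 passed, which is 0.023%, so a count of 0 among 9 does not set the enzymes apart. In DESeq2, which called 5.01% of the genes it could adjust, the count among the 9 was also 0. At an unadjusted p under 0.05 edgeR likewise counted 0 of the 9, against 17.9% of all tested genes. The heat pools and control pools overlapped in all 9, and they did not overlap in 24.5% of tested genes. Counts of 0 among 9 genes measured in the same pools do not set the enzymes apart here either. The fitted log2 fold change was positive in 8 of the 9, against 49.7% of all tested genes, with a median of 0.09 against -0.0027. On the log2(FPKM + 1) scale with limma-trend 4 of the 9 were positive, against 5355 of all 13060 tested genes. The median of the 9 on that scale was -0.0018, against -0.052 for all tested genes. A p that misses the threshold does not show that levels were equal, and the 95% intervals given below show which differences these pools leave possible.

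**Figure D1:**
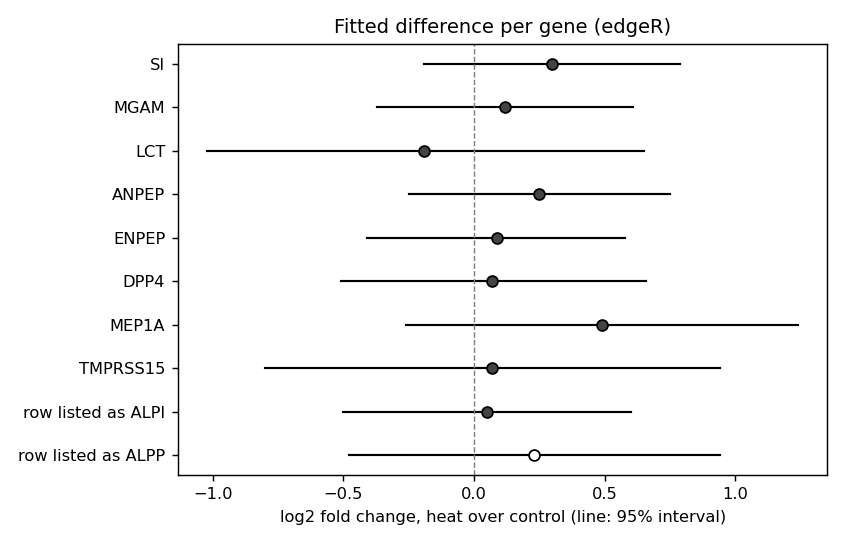
Fitted log2 fold change of heat over control for each enzyme gene (points) with its 95% interval (lines), from edgeR on 3 heat pools and 3 control pools; the open point is the gene listed as ALPP. Every interval includes 0, and the widest are those of TMPRSS15, from -0.80 to 0.94, and LCT, from -1.02 to 0.65.

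Levels differed far more between the enzymes than between the groups. On the FPKM scale, which divides reads by gene length and library size and so allows genes to be set beside each other, ANPEP was the highest of the 9, at 938 ± 207 FPKM in heat pools and 826 ± 67.6 FPKM in control pools (mean ± SD, n = 3 pools each). By its control mean it ranked 179 of the 13060 tested genes. MGAM followed at 349 ± 60.5 FPKM in heat pools and 336 ± 51.4 FPKM in control pools. SI was at 241 ± 40.0 and MEP1A at 235 ± 36.1 FPKM in heat pools, against 205 ± 37.7 and 174 ± 72.2 FPKM in control pools. ENPEP, DPP4, TMPRSS15 and LCT had heat means of 97.1, 79.1, 60.8 and 36.9 FPKM, against control means of 95.8, 78.6, 59.1 and 44.0 FPKM. These 8 genes lay above 81.8% or more of all tested genes.

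Not every neighbour in this order was separated from the next. In control pools the ranges of SI and MEP1A, of MEP1A and ENPEP, of ENPEP and DPP4 and of TMPRSS15 and LCT overlapped, while ANPEP stood above MGAM, and MGAM above SI, in every pool. In heat pools ANPEP, MGAM and SI kept the same order without overlap, and MEP1A also stood clear of ENPEP, with a lowest value of 202 FPKM against a highest of 126 FPKM. The 9 genes took 0.652%, 0.743% and 0.899% of all counts in heat pools 1, 2 and 3, against 0.763%, 0.596% and 0.725% in control pools 1, 2 and 3. ANPEP, MGAM and SI made up between 74.7% and 82.9% of these counts in heat pools and between 77.2% and 79.4% in control pools.

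**Figure D2:**
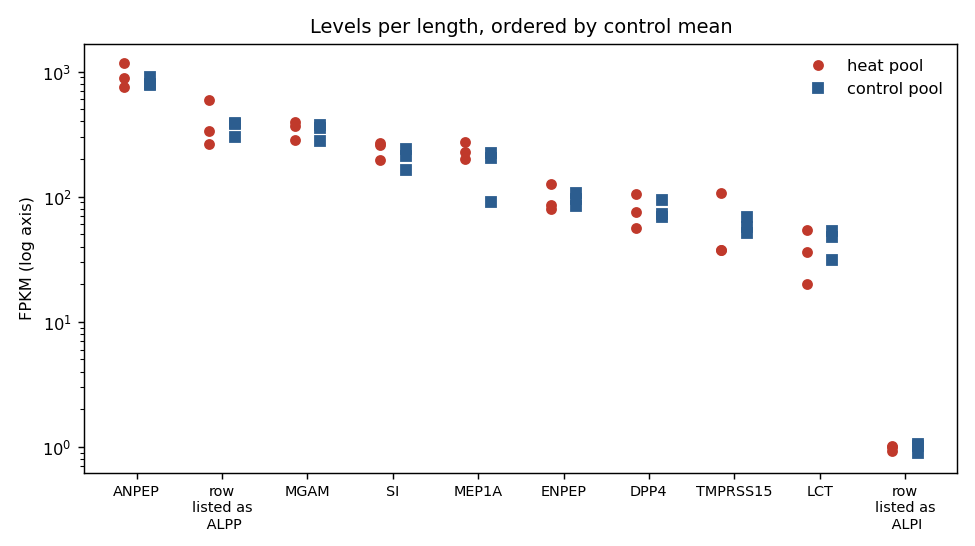
FPKM (log axis) of each enzyme gene in the 3 heat pools (circles) and the 3 control pools (squares), ordered by the control mean. ANPEP is highest, with a control mean of 826 FPKM, and the gene listed as ALPI lies near 1 FPKM in both groups, while the gene listed as ALPP lies near MGAM.

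The disaccharidases split dietary sugars and starch fragments. SI encodes sucrase-isomaltase, which splits sucrose and the branch points of starch fragments. Its level in CPM (the count scaled to the size of its library, which serves to compare 1 gene between libraries) was 1105, 1579 and 1612 in heat pools 1, 2 and 3, against 1207, 923 and 1361 in control pools 1, 2 and 3. Heat pools 2 and 3 lay above every control pool, and heat pool 1 lay between control pools 2 and 1. Fitted over the 6 libraries, the log2 fold change was 0.30 with SE 0.21 and a 95% interval from -0.19 to 0.79, which corresponds to a change between 0.878-fold and 1.73-fold (edgeR adjusted p = 0.492). Leaving out control pool 2 gave 0.16, and leaving out heat pool 1 gave 0.47.

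MGAM encodes maltase-glucoamylase, which frees glucose from the ends of maltose chains and is related to SI. It was at 1518, 2062 and 2353 CPM in heat pools, against 2039.6, 1484 and 1941 CPM in control pools. Heat pool 1 was within the control range and the other heat pools were above it. For MGAM the log2 fold change was 0.12 with SE 0.21 and an interval from -0.37 to 0.61 (edgeR adjusted p = 0.815). Within a library the ratio of MGAM to SI FPKM was 1.44, 1.37 and 1.53 in heat pools, against 1.77, 1.69 and 1.496 in control pools. The highest of the 6 was 1.29 times the lowest. The same measure was 1.32 for ANPEP to MGAM, a peptidase and a disaccharidase, and 3.41 for SI to LCT.

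LCT encodes lactase-phlorizin hydrolase, known in mammals for splitting milk sugar and also able to split plant glucosides. It was the only one of the 9 with a negative fitted change. Its values were 253, 146 and 416 CPM in heat pools, against 377, 216 and 333 CPM in control pools. Heat pool 2 held the lowest and heat pool 3 the highest value, so the heat pools spanned the whole control range. Its log2 fold change was -0.19 with SE 0.36 and an interval from -1.02 to 0.65 (edgeR adjusted p = 0.831), and it was 0.12 without heat pool 2 and -0.63 without heat pool 3. The SI to LCT ratio of FPKM was 13.5 in heat pool 2, against 5.38 and 4.79 in heat pools 1 and 3 and between 3.95 and 5.27 in control pools.

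**Figure D3:**
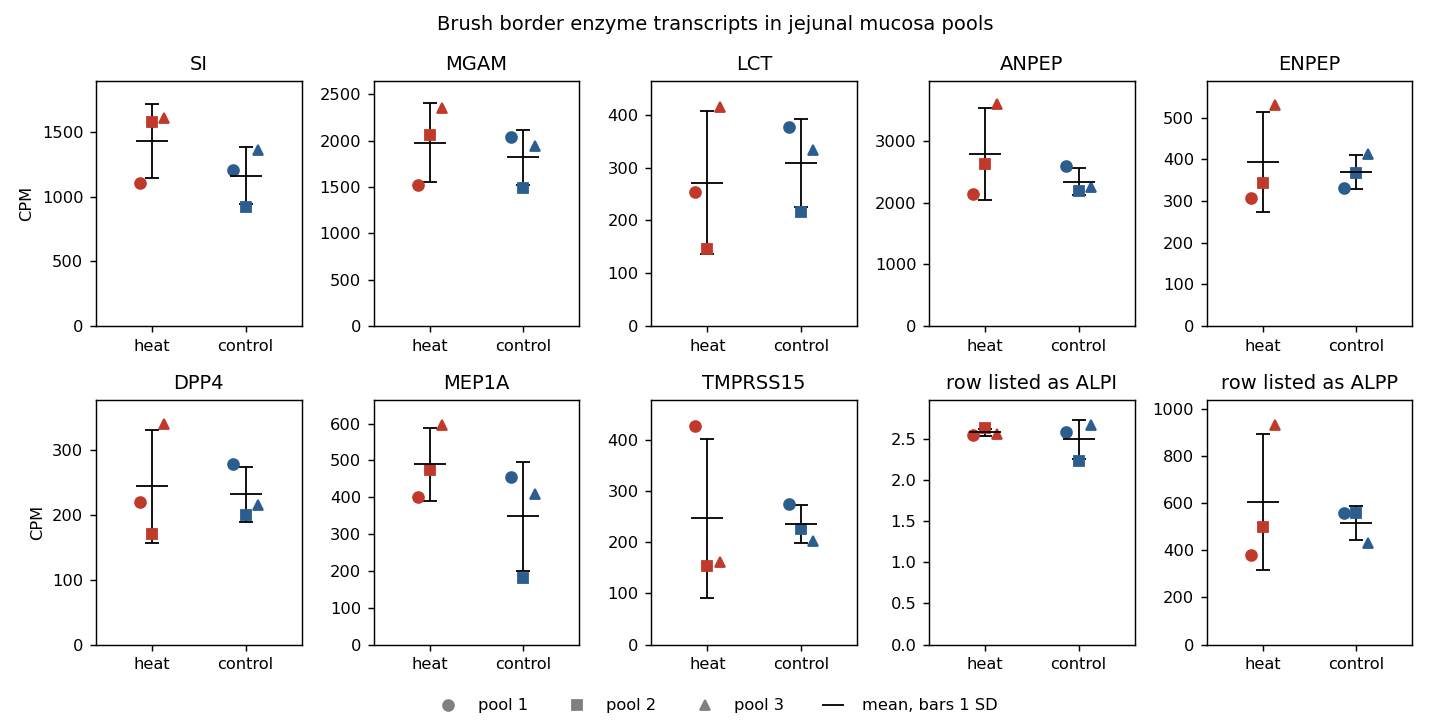
CPM of the 9 enzyme genes and of the gene listed as ALPP in 3 heat pools (left, red) and 3 control pools (right, blue); symbols mark the pool number, horizontal bars the mean and vertical bars 1 SD. The groups overlap in every panel, and heat pool 3 is the highest of the 6 pools in 7 of the 9 member genes.

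The peptidases included the most abundant enzyme of the group. ANPEP encodes aminopeptidase N, which removes neutral residues from the amino end of peptides. It was at 2136, 2619.7 and 3598 CPM in heat pools, against 2587, 2189 and 2250.2 CPM in control pools. Heat pool 3 stood above all others, heat pool 2 lay just above control pool 1, and heat pool 1 was the lowest of the 6. Over all pools the fitted log2 change of ANPEP was 0.25 (SE 0.22), with an interval from -0.25 to 0.75 (edgeR adjusted p = 0.585), and it was 0.02 without heat pool 3 and 0.42 without heat pool 1.

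ENPEP encodes aminopeptidase A, which removes acidic residues and also cleaves angiotensin II. Its values were 307, 344 and 531 CPM in heat pools, against 331, 368 and 413 CPM in control pools. Heat pool 3 was the highest of the 6 and heat pool 1 the lowest. The fitted log2 change of ENPEP was 0.09 (SE 0.22), with an interval from -0.41 to 0.58 (edgeR adjusted p = 0.868), and it turned to -0.19 without heat pool 3. The ANPEP to ENPEP ratio of FPKM was 9.72 ± 0.607 in heat pools and 8.75 ± 1.70 in control pools (SD, n = 3 each), with overlap.

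DPP4 encodes dipeptidyl peptidase 4, which removes dipeptides that end in proline or alanine and inactivates incretin hormones in mammals. It was at 219.5, 170.4 and 339.96 CPM in heat pools, against 278, 199.5 and 215 CPM in control pools. Heat pool 2 lay below the control range, heat pool 1 within it and heat pool 3 above it. The fitted change of DPP4 was 0.07 on the log2 scale (SE 0.25), with an interval from -0.51 to 0.66 (edgeR adjusted p = 0.912), and it turned to -0.24 without heat pool 3.

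MEP1A encodes the alpha subunit of meprin, a zinc endopeptidase that cuts inside peptide chains. It had the largest fitted change of the 9, at 400.3, 473 and 596 CPM in heat pools, against 455, 180.3 and 409 CPM in control pools. All 3 heat pools were above the control mean of 348 CPM, but heat pool 1 lay below control pools 1 and 3, and control pool 2 stood far below the rest. The log2 fold change was 0.49 with SE 0.32 and an interval from -0.26 to 1.24, or 0.837-fold to 2.36-fold (edgeR adjusted p = 0.462). Without control pool 2 it was 0.19 (edgeR adjusted p = 0.733). MEP1B, the beta subunit of meprin and no member of the group, was at 132, 123 and 218 CPM in heat pools, against 181, 93.2 and 127 CPM in control pools, so control pool 2 was the lowest for both subunits.

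TMPRSS15, the gene of enteropeptidase, followed another order of pools. It was at 427, 154 and 161 CPM in heat pools, against 276, 227 and 203 CPM in control pools. Heat pool 1 held the highest value of all and heat pools 2 and 3 the lowest. The log2 fold change was 0.07 with SE 0.38 and an interval from -0.80 to 0.94 (edgeR adjusted p = 0.946), and without heat pool 1 it turned to -0.57 (edgeR adjusted p = 0.177). The SI to TMPRSS15 ratio of FPKM was 1.81, 7.20 and 7.00 in heat pools, against 3.07, 2.85 and 4.70 in control pools. The coefficient of variation of TMPRSS15 between heat pools was 63.0%, which was above that of 97.3% of tested genes, against 15.8% between control pools.

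The alkaline phosphatase needed a check of its name. ALPI is the symbol of intestinal alkaline phosphatase, an enzyme that removes phosphate groups, including those of bacterial lipopolysaccharide. The row listed as ALPI (gene 424936) had between 30 and 33 counts in heat pools and between 31 and 37 counts in control pools. That equals 2.55, 2.63 and 2.56 CPM in heat pools, against 2.58, 2.22 and 2.67 CPM in control pools, a level lower than that of most tested genes. Its log2 fold change was 0.05 with SE 0.24 and an interval from -0.50 to 0.60 (edgeR adjusted p = 0.942).

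In the RefSeq gene table of a later chicken assembly, GRCg7b, gene 424936 has the symbol ALPPL, and the symbol ALPI belongs to gene 100859876, which the deposited table lists as ALPP. The row listed as ALPP was at 382, 499.6 and 933 CPM in heat pools, against 557, 557 and 433 CPM in control pools. Its FPKM averaged 396 ± 171 in heat pools and 356 ± 50.1 in control pools (SD, n = 3 each), between 263 and 633 times the FPKM of the row listed as ALPI in the same library. Its log2 fold change was 0.23 with SE 0.31 and an interval from -0.48 to 0.94 (edgeR adjusted p = 0.741), and it turned to -0.23 without heat pool 3. Reads shared between the phosphatase genes could have been split by the counting and were not examined here.

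The pools themselves carried a pattern across the enzymes. Heat pool 3 was the highest of the 6 libraries for 7 of the 9 genes (SI, MGAM, ANPEP, DPP4, ENPEP, LCT and MEP1A), against 17.0% of all tested genes. Relative to the control mean (log2 CPM), the median of the 9 genes was 0.49 in heat pool 3, and it was -0.06 and 0.08 in heat pools 1 and 2. Control pool 2 lay below the control mean for all 9 genes, with a median of -0.20, and was the lowest library for 4 of them, against 13.9% of all tested genes. Over all tested genes the corresponding medians were between -0.022 and 0.010. Control pool 2 lay close to the control mean for ENPEP (-0.01), TMPRSS15 (-0.04) and ANPEP (-0.09). The row listed as ALPI, among the 4 that were lowest there, had 31 counts in control pool 2, in a range of 30 to 37 over all pools. Without heat pool 3 the median log2 fold change of the 9 was 0.02 and 5 of the 9 were positive, and without control pool 2 it was 0.05, again with 5 positive. In these fits 6674 of 13262 and 6713 of 13215 tested genes were positive. TMPRSS15 was the gene that least followed the others: over the 6 libraries the correlation of its log2 CPM with the mean of the other 8 was -0.46, against values from 0.52 to 0.84 for the other members. These correlations describe 6 libraries in which the genes share depth and hens.

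**Figure D4:**
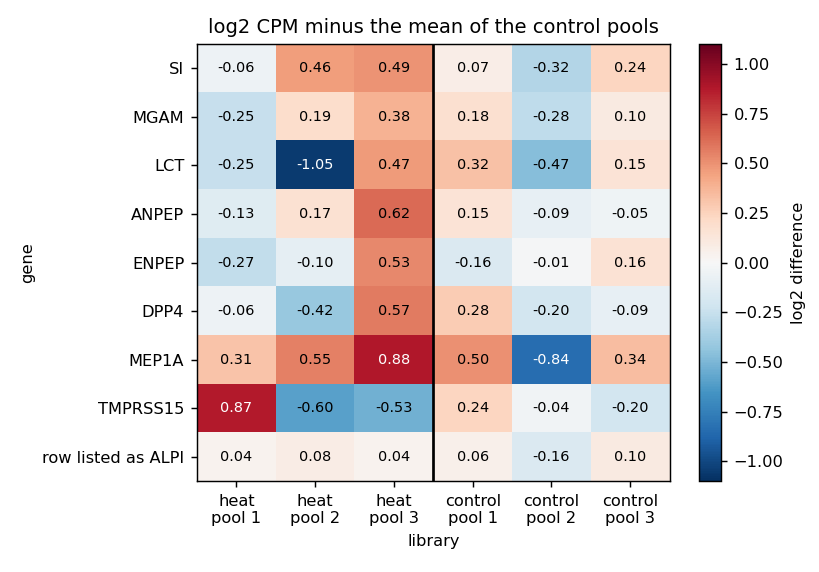
Log2 CPM of each of the 9 genes in each pool minus the mean of the 3 control pools; red cells are above and blue cells below that mean, and the line divides heat pools (left) from control pools (right). Heat pool 3 is above the mean for 8 of 9 genes. Control pool 2 is below it for 9 of 9, though only at -0.01 for ENPEP. TMPRSS15 is 0.87 in heat pool 1 and -0.60 and -0.53 in heat pools 2 and 3.

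Most of the enzymes varied more between pools than a typical gene. The median coefficient of variation of the 9 was 26.8% between heat pools and 16.3% between control pools, against 15.8% and 10.9% for all tested genes. LCT had 50.1% between heat pools, and MEP1A had 42.3% between control pools. DPP4 and LCT had their lowest values in heat pool 2 and control pool 2, an order shared by 4.35% of tested genes. CPO, the gene of carboxypeptidase O, looked at after its values were seen, was also lowest there, at 51.8, 11.54 and 55.5 CPM in heat pools, against 40.4, 14.3 and 36.6 CPM in control pools.

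Genes that mark position along the intestine in mammals also differed between the pools, and were chosen after their values were seen. FABP6, the bile acid binding protein of the ileum, was at 89.6, 80.4 and 199.6 CPM in heat pools, against 283, 68.8 and 345 CPM in control pools. SLC10A2, the ileal bile acid carrier, was at 1.02, 0.955 and 2.81 CPM in heat pools, against 11.6, 2.87 and 12.5 CPM in control pools (log2 fold change -2.49, SE 0.63, edgeR adjusted p = 0.126). PDX1, a factor of the duodenum and pancreas, was at 1.53, 2.94 and 2.23 CPM in heat pools, against 3.44, 16.3 and 1.01 CPM in control pools. Control pool 2, where MEP1A was lowest, was the lowest for FABP6 and the highest for PDX1. For SLC10A2 it lay below the other control pools but above every heat pool. FABP6 was nearly as low in heat pools 1 and 2, where MEP1A was at 400.3 and 473 CPM, against 180.3 CPM in control pool 2. The sources used here do not say which stretch of jejunum was taken from each hen, and its part in these differences was not tested.

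Of the other brush border enzymes and membrane proteins of the same surface, 22 of 26 listed genes were in the table and 21 were tested, and 0 passed in edgeR or DESeq2. At an unadjusted p under 0.05 edgeR counted 3 of the 21 higher and 0 lower, against 8.87% of all tested genes higher and 9.02% lower. Their median log2 fold change was 0.24, with 15 of the 21 positive, against -0.0027 and 49.7% for all tested genes. The median of this list stayed positive under every scaling and without each pool in turn, with a low of 0.09 without heat pool 3. In that fit 12 of the 21 were positive, against 6674 of 13262 tested genes. On log2(FPKM + 1) with limma-trend 12 of the 21 were positive, with a median of 0.16 against -0.052 for all tested genes. Relative to the summed epithelial markers the median was 0.33, against 0.13 for all tested genes. FOLH1, a folate hydrolase, was at 38.8, 31.6 and 44.4 CPM in heat pools, against 27.5, 32.6 and 23.3 CPM in control pools (log2 fold change 0.46, SE 0.17, edgeR adjusted p = 0.227). VNN1, a pantetheinase, had a log2 fold change of 0.60 (SE 0.25, edgeR adjusted p = 0.258), and NAALAD2, a peptidase related to FOLH1, one of 0.64 (SE 0.32, edgeR adjusted p = 0.331). ADGRG7, an adhesion receptor in this list that is no hydrolase, was at 0.60 (SE 0.18, edgeR adjusted p = 0.164).

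Peptidases inside the cell, which finish the digestion of absorbed peptides or of cell proteins, had mostly negative fitted changes. Of 14 tested members 13 were negative, against 6575 of all 13060 tested genes, with a median of -0.24 against -0.0027. In edgeR 0 passed, while 1, DPP7, passed in DESeq2 (adjusted p = 0.0494), which called 2.26% of the genes it could adjust lower. At an unadjusted p under 0.05 edgeR counted 5 of the 14 lower and 0 higher, against 9.02% of all tested genes lower and 8.87% higher. In 7 of the 14 every heat pool lay below every control pool, against 12.9% of all tested genes. DPP7, a dipeptidyl peptidase of lysosomes, was at 85.5, 79.5 and 89.8 CPM in heat pools, against 113, 108 and 115 CPM in control pools (log2 fold change -0.40, SE 0.10, edgeR adjusted p = 0.124). RNPEP, aminopeptidase B, was at 152, 133 and 164 CPM in heat pools, against 200.5, 228 and 169 CPM in control pools (log2 fold change -0.41, SE 0.15, edgeR adjusted p = 0.203). XPNPEP1, which removes a residue next to proline, and ACY1, an aminoacylase, were both at -0.39 (SE 0.13 and 0.16, edgeR adjusted p = 0.193 and 0.251). The list median was negative under every scaling and without each pool in turn, between -0.40 without heat pool 3 and -0.16 without heat pool 2. Without heat pool 2, 4 of the 14 were positive, against 6585 of 13224 tested genes. With the trend on gene length removed the median was -0.19, against 0.006 for all tested genes. Genes of a list were measured in the same 6 pools, so such counts are not counts of independent genes.

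Among 18 transcription factors of the enterocyte programme 0 passed in edgeR and 2 were higher in DESeq2, where 2.76% of the genes it could adjust were called higher. At an unadjusted p under 0.05 edgeR counted 3 of the 18 higher, against 8.87% of all tested genes, and 0 lower, against 9.02%. ISX, an intestinal homeobox factor that in mice represses carotenoid uptake and cleavage, was at 73.0, 82.9 and 77.0 CPM in heat pools, against 56.7, 54.3 and 52.1 CPM in control pools (log2 fold change 0.51, SE 0.10, edgeR adjusted p = 0.0896, DESeq2 adjusted p = 0.00527). MAF, a basic leucine zipper factor, was at 0.37 (SE 0.13, edgeR adjusted p = 0.21) and HNF4A, a nuclear receptor of enterocytes, at -0.31 (SE 0.14, edgeR adjusted p = 0.295). The median of the 18 was 0.11.

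Of the carriers that take up what the enzymes release, 14 were tested and 0 passed in edgeR, with a median of 0.04. It turned negative on the log2(FPKM + 1) scale (-0.004) and without heat pool 3 (-0.02) or control pool 2 (-0.015). The medians of all tested genes in these fits were -0.052, 0.003 and 0.006. At an unadjusted p under 0.05 edgeR counted 2 of the 14 higher and 1 lower, against 8.87% and 9.02% of all tested genes. DESeq2 called 1 higher and 1 lower, against 2.76% and 2.26% of the genes it could adjust. SLC16A10, a carrier of aromatic amino acids, was at 28.8, 31.0 and 35.2 CPM in heat pools, against 16.4, 19.1 and 21.1 CPM in control pools (log2 fold change 0.75, SE 0.15, edgeR adjusted p = 0.0888, DESeq2 adjusted p = 0.00299). SLC2A5, the fructose carrier, was at 23.4, 30.8 and 43.1 CPM in heat pools, against 59.5, 74.4 and 86.7 CPM in control pools (log2 fold change -1.18, SE 0.23, edgeR adjusted p = 0.0892, DESeq2 adjusted p = 0.000491). SLC3A1, a subunit of the cystine carrier, and SLC6A19, a carrier of neutral amino acids, were at 0.35 (SE 0.12) and 0.29 (SE 0.15), with edgeR adjusted p of 0.204 and 0.34.

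Proportions within a library remove the scaling between libraries. Of 14 ratios of FPKM computed after the levels were seen, the heat pools lay above the control pools in 4 and below in 0. The ratio of ANPEP to SLC15A1, the peptide carrier of the same membrane, was 10.4, 11.4 and 9.78 in heat pools, against 6.99, 7.42 and 7.66 in control pools. Dividing every tested gene by SLC15A1 in this way put 7.55% of them higher in all heat pools. DPP4 to SLC15A1 was 1.03, 0.716 and 0.891 in heat pools, against 0.725, 0.652 and 0.706 in control pools, with overlap. The other 3 were ratios to VIL1, the actin bundling protein villin of the microvillus core. ANPEP to VIL1 was 2.65 ± 0.642 in heat pools and 1.48 ± 0.105 in control pools, and SI to VIL1 was 0.702 ± 0.261 in heat pools and 0.367 ± 0.0630 in control pools (SD, n = 3 each). MGAM to VIL1 was 0.766, 1.37 and 0.875 in heat pools, against 0.662, 0.508 and 0.638 in control pools. VIL1 itself was at 813, 617 and 1106 CPM in heat pools, against 1267, 1200.3 and 1250.0 CPM in control pools (log2 fold change -0.55, SE 0.21, edgeR adjusted p = 0.235), and 43.8% of all tested genes were higher in every heat pool when divided by it. An exact permutation test of 3 pools against 3 cannot give a two-sided p below 0.1, so none was made. The ratio of SI to SLC5A1, the glucose carrier, was 0.458, 0.742 and 0.592 in heat pools, against 0.440, 0.463 and 0.447 in control pools, with overlap.

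**Figure D5:**
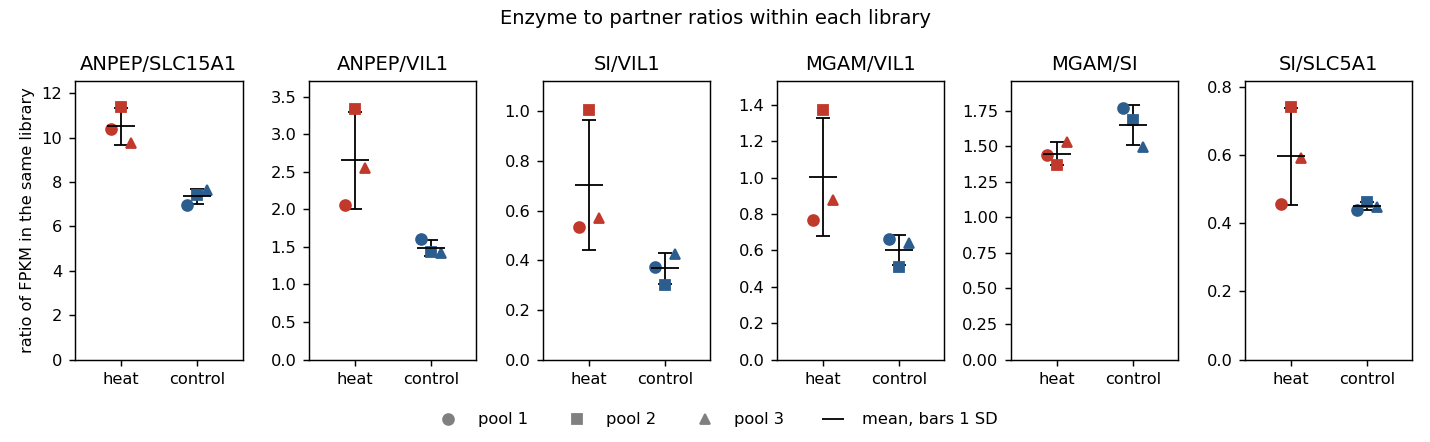
Ratio of FPKM of an enzyme to another gene in the same library, in 3 heat pools (left, red) and 3 control pools (right, blue); symbols mark the pool number, horizontal bars the mean and vertical bars 1 SD. ANPEP to SLC15A1 and the 3 ratios to VIL1 do not overlap between the groups, while MGAM to SI and SI to SLC5A1 do.

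Markers of the epithelium and of other cell types were set beside the enzymes. The 16 epithelial markers summed to between 22809.6 and 45989.5 FPKM in heat pools and between 32635 and 53828 FPKM in control pools, with a median log2 fold change of -0.02 that lay between -0.25 and 0.07 over the alternatives. Of the 16, 0 passed in edgeR, which counted 1 higher and 2 lower at an unadjusted p under 0.05. The shares over all tested genes were 8.87% higher and 9.02% lower. DESeq2 called 1 of the 16 higher, against 2.76% of the genes it could adjust. Smooth muscle markers (7 of 7 detected) summed to between 399 and 916 FPKM in heat pools and between 409 and 802 FPKM in control pools. Fibroblast markers (6 of 6 detected) summed to between 229 and 463 FPKM in heat pools and between 266 and 395 FPKM in control pools. T cell markers (6 of 6 detected) summed to between 503 and 822 FPKM in heat pools and between 682 and 874 FPKM in control pools, and goblet cell markers (7 of 7 detected) to between 1328 and 2202 FPKM in heat pools and between 1679 and 2237 FPKM in control pools. Plasma and B cell, enteroendocrine, crypt and endothelial markers also had overlapping sums. Only the erythroid sum, from 2 of 6 listed genes, did not overlap, at 43.2 to 66.7 FPKM in heat pools and 79.1 to 84.2 FPKM in control pools. The 2 genes differed: HBBA (log2 fold change -0.98) was lower in every heat pool, as were 12.9% of all tested genes. HBA1 (log2 fold change -0.13) overlapped. None of the markers in the table was at 0 in every library. Their part in the levels of the enzymes was not tested. Taken relative to the summed epithelial markers in place of the whole library, the 9 enzymes had a median log2 fold change of 0.18, when the median of all tested genes was 0.13, and 0 of the 9 passed in edgeR (smallest adjusted p = 0.9996). That scaling sums counts, so the most abundant markers weigh most in it. APOA1, the highest of the 16, was at 8856, 4696 and 11329 CPM in heat pools, against 11650, 7935 and 6152 CPM in control pools.

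The 5 genes whose log2 CPM over the 6 libraries was most like the mean standardised profile of the 9 enzymes were FCER1G, EFCAB11, CLCN7, LOC424430 and RNF13, with Pearson correlations of 0.974, 0.970, 0.970, 0.969 and 0.966. FCER1G, an immune receptor subunit, and EFCAB11 were near 1 CPM, where single reads weigh on the order of the pools. RNF13, a ubiquitin ligase and the most abundant of the 5, was at 272, 286 and 317 CPM in heat pools, against 305, 256 and 289.8 CPM in control pools. Correlations above 0.9 with this profile were found for 74 of the remaining tested genes, or 0.567% of them.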

How the data were processed

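RNA of jejunal mucosa was pooled from 4 hens per library and sequenced after selecting poly(A) RNA or removing ribosomal RNA, per the labels' protocols. Tools named in the submitters' processing notes are HISAT2 2.0.1, HTSeq 0.6.1, cutadapt 1.9.1 and DESeq2, and the build GRCg6a; the sources used here do not give their order or settings. The authors deposited estimated counts per gene, not normalized (between 13.05% and 13.65% of values per library are not whole within 0.001), and FPKM, per the file headers. Which tool made either is not stated there.

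Groups and pool numbers came from the sample titles. Estimated counts were rounded and tested with edgeR 4.0.16 (glmQLFit, glmQLFTest) in R 4.3.3, after filterByExpr (minimum count 10, minimum total 15) and TMM scaling. P-values were two-sided and adjusted after Benjamini and Hochberg over all 13060 genes, at a threshold of 0.05. SE was computed as |log2 fold change| over the root of F, and 95% intervals use the t distribution with the fit's degrees of freedom. The plan foresaw counts or, failing them, limma-trend on log2(FPKM + 1), which is an alternative here (limma 3.58.1), as is DESeq2 1.42.0. Others were further scalings and filters, a smaller pseudocount of 0.1, a replicate block, removal of a trend on gene length, scaling to epithelial markers, and leaving out each pool. Length was that implied by count and FPKM. The tests were checked on simulated counts. Python 3.11.15, pandas 2.3.3 and matplotlib 3.10.9 made tables and plots.

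The members and gene lists were chosen with earlier results of these data known. The text names every member, the 4 genes with the smallest p of each related list, and the 5 genes most like the members, except 1 gene of a related list that is not reported here; genes named beyond this rule were chosen after their values were seen. The 20 symbols turned into dates were restored through a GRCg7b gene table, which matched 93.0% of identifiers. Depth was 11513427 to 13805395 summed counts, and the counting error is largest for the row listed as ALPI with 30 to 37 counts. No pair of libraries in a group was as close as counting noise, so none was treated as a repeat. Whether counting used strand is not stated.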

Additional observations from a re-analysis of the deposited data

How the results depend on the processing

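Across 16 alternatives none of the 9 enzymes passed the threshold, the smallest adjusted p being 0.177, and of 144 values 126 kept their direction. SI, ANPEP and MEP1A kept theirs in all 16, with ranges without single pools of 0.16 to 0.47, 0.02 to 0.42 and 0.19 to 0.73. On log2(FPKM + 1) and log2(FPKM + 0.1) with limma-trend the changes of TMPRSS15 (-0.14 in both), DPP4 (-0.03 in both), ENPEP (-0.0033 and -0.0035) and the row listed as ALPI (-0.0018 and -0.0023) turned negative, and with the replicate block TMPRSS15 did (-0.09). Without single pools the range was -0.57 to 0.32 for TMPRSS15, -0.63 to 0.12 for LCT, -0.24 to 0.28 for DPP4, -0.19 to 0.25 for ENPEP, -0.02 to 0.29 for MGAM, -0.02 to 0.11 for the row listed as ALPI and -0.23 to 0.49 for the row listed as ALPP. With limma-trend on these FPKM scales the median of all tested genes was -0.052 and -0.066. In the main fit that median was -0.003. The limma-trend fits used FPKM as deposited, without the TMM scaling of the main fit. The TMM factor was 0.936 in heat pool 3 and between 0.984 and 1.031 in the other pools. The cause of the turns in direction was not tested. The median of the 9 lay between -0.0023 and 0.25. With the trend on gene length removed, SI was at 0.22, MGAM at 0.05, ANPEP at 0.26 and MEP1A at 0.53. The median of the 9 in that fit was 0.07, with 8 of them positive.

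Over all genes, 3 were called higher and 0 lower. DESeq2 called 338 higher and 277 lower, the replicate block 8 and 12, the fit without a length trend 4 and 1, and scaling to epithelial markers, which moved the median of all genes by 0.13, 38 and 15. Limma-trend with a pseudocount of 0.1 called 1 higher. Without single pools the counts ranged from 0 (without heat pool 1 or any control pool) to 6 higher and from 0 to 1 lower, the highest of each without heat pool 3. Deviations of same-numbered pools correlated at 0.257, 0.0891 and 0.0169 for numbers 1, 2 and 3. Heat pools 1 and 3 correlated best with the control pool of their own number, pool 3 by a small margin (0.0169 against 0.0129). Heat pool 2 correlated best with control pool 3 (0.185). Whether same-numbered pools share more than a number was not tested. Under the block SLC2A5 was called lower (adjusted p = 0.0423); no call among the enzymes changed. With 30 to 37 counts, the row listed as ALPI is limited by depth.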
